A study of Mus musculus with 11 samples.

Results

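The step from Pre CFU-E to CFU-E is the last of the erythroid stages sorted in this series, and it was read on 6 of the 11 arrays: 3 of Pre CFU-E cells and 3 of CFU-E cells, 1 array for each of 3 genotypes. All genes whose probe sets carry a single symbol were described, 19933 in all, of which 10701 were bright enough to be tested. The genotypes were Zbtb46+/+ (WT), Zbtb46 gfp/+ (Het) and Zbtb46gfp/gfp (KO), all on C57Bl/6 and all taken from mice at steady state. Zbtb46 encodes a zinc finger transcription factor known for its expression in classical dendritic cells. The cells came from bone marrow and were lineage-negative and CD117+ without CD41 or CD16/32. Pre CFU-E cells were further CD150+ with low CD105, and CFU-E cells lacked CD150 and carried CD105. The stage before, Pre MegE (CD150+ and CD105-), was measured in the same 3 genotypes and is used here only to say whether a change began at the later step or earlier. Mouse age, sex and whether stages or genotypes came from separate mice are not stated in the labels, so p-values measure the spread between these arrays.

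A CFU-E, the colony-forming unit-erythroid, is a progenitor that depends on erythropoietin and makes a small colony of red cells after a few divisions. Its precursors still share surface markers and transcription factors with megakaryocyte and stem cell lineages, and the exchange of GATA2 for GATA1 on shared target genes is a textbook feature of erythroid commitment. Cells that follow the CFU-E fill with hemoglobin, build a spectrin skeleton under the membrane and lose their leukocyte surface proteins.

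Values are log2 intensities, given throughout in the order WT, Het and KO, and differences are CFU-E minus Pre CFU-E within genotypes unless another step is named. A gene is called changed at a limma adjusted p under 0.05. Of the 10701 genes tested, 2005 were higher (18.7%) and 2711 lower (25.3%) in CFU-E cells, 44.1% in all. Changes of at least 2-fold were far fewer, with 79 genes higher (0.738%) and 237 lower (2.21%), and all 316 had the same sign in 3 of 3 genotypes, as did 63.3% of the genes tested. The 3 CFU-E arrays lay above all 3 Pre CFU-E arrays for 24.9% of genes and below all 3 for 30.1%. The balance between rises and falls depended on the scaling, since 42.5% of the called genes were higher as deposited, 52.0% with each array centred on its median and 48.2% after quantile normalization. Without the 3 WT arrays 1188 genes were higher and 1946 lower. The WT arrays differed from the others in carrying Xist at 11.52 to 12.31, against 5.86 to 6.38 on the Het and KO arrays, with Y-linked genes such as Eif2s3y above 10 on every array, so the WT RNA held Xist as well as Y-linked transcripts. Of the tested genes, 1.63% held the same value to within 0.0001 on all 3 Pre CFU-E arrays, against 0.159% at Pre MegE and 0.308% at CFU-E, and 69.5% of those tied genes were called against 43.6% of the others. Without the tied genes 77 genes were at least 2-fold higher and 226 at least 2-fold lower. As these are bulk samples, fewer cells of a type and less RNA per cell cannot be told apart.

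Set beside the transition from Pre MegE, which shares the Pre CFU-E arrays, the genes fell into classes. At that earlier step 3966 genes were higher (37.1%) and 3134 lower (29.3%), and the difference between the steps was called above 0 for 1567 genes (14.6%) and below 0 for 2577 (24.1%). A new rise was called higher at the later step, not called higher at the earlier one, and larger at the later step by the test of the difference between the steps. There were 339 new rises (3.17% of the genes tested), of which 25 were at least 2-fold, and 598 new falls (5.59%), of which 26 were. Continued change was more frequent, with 1380 genes called higher at both steps (12.9%) and 1798 called lower at both (16.8%), and 211 of the continued falls were at least 2-fold at the later step. A rise that ended was called higher at the earlier step, not called higher at the later one, with a difference between the steps called below 0. There were 1634 rises that ended (15.3%) and 807 falls that ended (7.54%). By level alone, 76 of the 19933 genes (0.381%) lay below the array median on all Pre MegE and Pre CFU-E arrays and at or above it on all CFU-E arrays, and 202 genes (1.01%) went from at or above it on all Pre CFU-E arrays to below it on all CFU-E arrays.

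**Figure D1:**
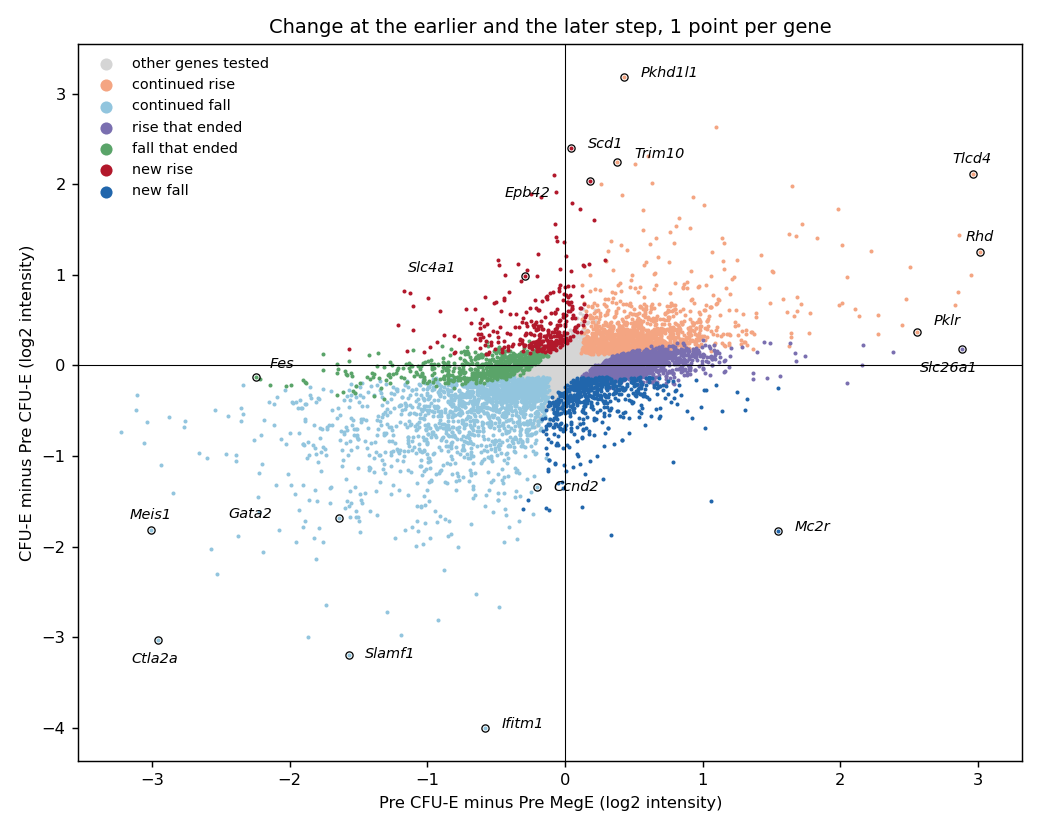
Log2 difference of each of the 10701 genes tested at the earlier step (x axis, Pre CFU-E minus Pre MegE) and at the later step (y axis, CFU-E minus Pre CFU-E), coloured by class; a gene in a new and an ended class is drawn as new. Both axes use the Pre CFU-E arrays, with opposite sign, so the axes are not independent. Scd1 and Epb42 lie near 0 on the x axis and above 2 on the y axis, Slc26a1 the other way round, and Ifitm1 lies lowest at -4.01.

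Genes of the red cell membrane rose at this step, most of them after an earlier rise. The membrane skeleton list held 1 new rise and 7 continued rises, and the red cell surface list 1 and 10. Epb42, which encodes protein 4.2 of the membrane skeleton, measured 7.23, 7.49 and 7.27 on the Pre CFU-E arrays and 9.36, 9.31 and 9.42 on the CFU-E arrays. The groups did not overlap, and the rise was 4.10-fold (log2 2.03, SE 0.0845, adjusted p = 1.96e-07) after a difference of 0.18 at the earlier step that was not called (adjusted p = 0.0881). Trim10, an erythroid ubiquitin ligase gene, measured 7.21, 7.09 and 7.21, then 9.39, 9.41 and 9.42. It rose by 2.24 (SE 0.0598, adjusted p = 2.42e-08) and was called higher by 0.38 at the step before. Both genes lay below the array median on all earlier arrays. Slc4a1, which encodes band 3, the anion exchanger, went from 8.16, 8.14 and 8.22 to 9.05, 9.20 and 9.23. It had fallen by 0.29 at the earlier step (adjusted p = 0.00794) and rose by 0.98 at the later one (SE 0.0774, adjusted p = 9.36e-06). Sptb, the beta spectrin gene, had started before, at 9.42, 9.63 and 9.54 in Pre CFU-E and 11.29, 11.38 and 11.49 in CFU-E, a rise of 1.86 that was steeper than the 0.93 of the step before (difference 0.93, adjusted p = 0.00183).

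Promoters of 4 of these erythroid genes are shown because the GATA element AGATAA, the sequence bound by GATA1 and GATA2, lies in each of them. They are the 250 bases before the gene start in RefSeq on GRCm38.p6, printed on the gene's strand in lower case with the matched hexamer (AGATAA or its reverse complement TTATCT) in capitals.
Epb42, chr2:121036878-121037127, minus strand: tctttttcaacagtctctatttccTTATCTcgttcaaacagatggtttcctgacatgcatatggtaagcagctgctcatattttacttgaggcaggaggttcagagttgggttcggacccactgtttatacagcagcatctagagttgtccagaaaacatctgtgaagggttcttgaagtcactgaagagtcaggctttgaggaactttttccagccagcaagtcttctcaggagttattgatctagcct
Trim10, chr17:36869324-36869573, plus strand: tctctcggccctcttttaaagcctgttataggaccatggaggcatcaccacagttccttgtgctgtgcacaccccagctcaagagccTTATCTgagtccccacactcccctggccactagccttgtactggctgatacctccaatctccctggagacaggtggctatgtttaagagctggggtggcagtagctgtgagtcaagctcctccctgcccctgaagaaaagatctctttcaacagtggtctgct
Rhd, chr4:134864286-134864535, plus strand: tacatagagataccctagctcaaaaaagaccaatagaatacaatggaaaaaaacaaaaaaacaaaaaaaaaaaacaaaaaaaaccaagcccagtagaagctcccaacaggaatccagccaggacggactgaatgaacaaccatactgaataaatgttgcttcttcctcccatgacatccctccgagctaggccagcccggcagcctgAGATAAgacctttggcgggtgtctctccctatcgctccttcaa
Alas2, chrX:150547167-150547416, plus strand: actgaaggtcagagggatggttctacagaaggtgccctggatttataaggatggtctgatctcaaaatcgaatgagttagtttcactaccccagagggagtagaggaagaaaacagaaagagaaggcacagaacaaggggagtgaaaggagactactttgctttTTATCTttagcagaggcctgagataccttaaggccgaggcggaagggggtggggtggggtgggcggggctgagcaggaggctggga
The match began 226, 163, 43 and 86 bases before the gene start, in the order Epb42, Trim10, Rhd and Alas2. Among the genes at least 2-fold higher in CFU-E cells, 13 of 62 with a listed promoter held the hexamer on either strand (20.97%), against 20 of 180 of the genes at least 2-fold lower (11.11%), 625 of 8643 of all genes tested (7.23%) and 3090 of all 27025 genes with a listed promoter (11.43%). A gene with several promoters was counted if any of them held it. The CACCC element CCACACCC, a sequence bound by KLF1, was in 5 of the 62 (8.06%), 10 of the 180 (5.56%) and 360 of the 8643 (4.17%). These shares describe letters in a window and were not tested.

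Scd1, a stearoyl-CoA desaturase that makes monounsaturated fatty acids, was the largest new rise. It measured 6.68, 6.47 and 6.62 in Pre CFU-E and 8.97, 8.84 and 9.18 in CFU-E, a rise of 2.40 (SE 0.0629, adjusted p = 2.42e-08), and all 6 earlier arrays lay below the median. Its paralog Scd2 moved the other way, from 12.15, 12.17 and 12.16 to 11.45, 11.49 and 11.57, a fall of 0.66 (SE 0.0581, adjusted p = 1.9e-05). Sec14l2, a lipid-binding protein gene, rose by 2.10 from 7.86, 7.91 and 7.79 to 9.99, 9.88 and 10.01 with no call at the step before (-0.08, adjusted p = 0.288). Pcyt1b, which makes the activated choline of phosphatidylcholine synthesis, had fallen by 0.28 and then rose by 1.06. The other large new rises were Rab3il1 (1.91), C1qtnf12 (1.90), Slc46a3 (1.86), Snord118 (1.79, the same on its 2 probe sets) and Fhdc1 (1.72).

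Lipid genes were also among the continued rises, with Plpp1, Fads3 and Tlcd4 among the 8 largest. Of 33 tested genes for fatty acid and phospholipid enzymes, 16 rose and 7 fell (median 0.11, against -0.005 over all genes tested at this step and 0.038 at the earlier one), and 10 rose by at least 2-fold. This list was chosen with earlier results of these data known. It holds Plpp1, Scd1, Fads3, Tlcd4 and Sec14l2 of the 12 largest rises, so its counts partly restate that choice. Plpp1, a lipid phosphate phosphatase, rose by 2.63 from 7.82 on all 3 Pre CFU-E arrays to 10.53, 10.39 and 10.42, and this tie makes its spread at Pre CFU-E 0 as deposited. Fads3, a desaturase family gene, rose by 2.31 (SE 0.0469) from 8.63, 8.50 and 8.65 to 10.94, 10.86 and 10.92. Lpcat1, which remodels phosphatidylcholine, rose by 1.37 after 0.33 at the earlier step. Paqr9 rose by 1.73 after 1.98 and Tlcd4 by 2.12 after 2.96. Mboat2, a lysophospholipid acyltransferase gene, and the sphingosine kinase gene Sphk1 rose by 1.0 and 0.67 after 2.95 and 2.83, in both cases less than before (adjusted p = 3.03e-05 and 1.92e-06 for the difference between the steps). Genes of the route from citrate to new fatty acids were not called higher, with Fasn at -0.04 and Acaca at 0.01, neither called, and Acly lower by a called -0.20. The Acly call was lost without the Het array of Pre CFU-E (-0.16, adjusted p = 0.064) or of CFU-E (-0.15, adjusted p = 0.0793). The largest rise of all at this step was Pkhd1l1, the gene of a large membrane protein, from 6.94, 7.08 and 7.07 to 10.11, 10.14 and 10.40.

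**Figure D2:**
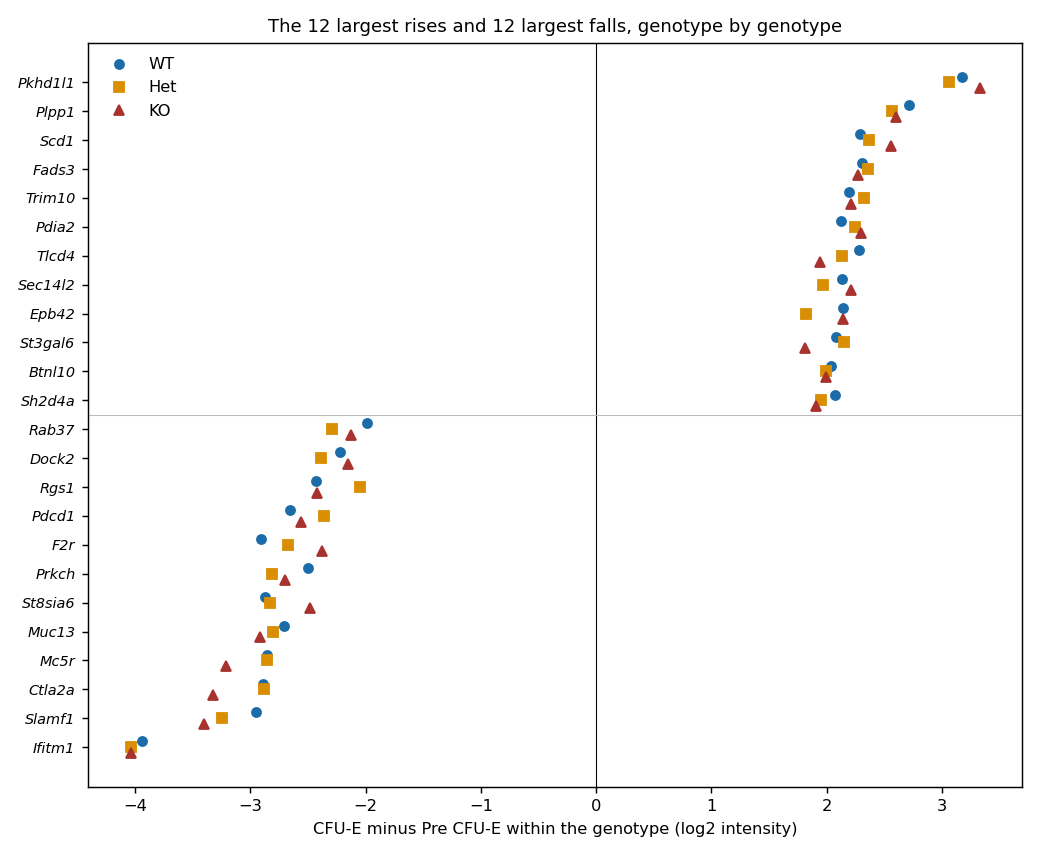
CFU-E minus Pre CFU-E log2 difference (x axis) within WT, Het and KO for the 12 genes with the largest called rises and the 12 with the largest called falls; each point is the difference of 1 pair of arrays and there is no error bar. All 3 genotypes lie on the same side of 0 for each of the 24 genes, and Pkhd1l1 and Ifitm1 lie at the ends.

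Genes of heme synthesis and its transporters rose at both steps. Of 18 tested, 14 rose and 1 fell at the later step (median 0.47), and 14 rose and 2 fell at the earlier one (median 0.57). They did not move in step with each other. Uros, the uroporphyrinogen synthase, measured 9.65, 9.54 and 9.65 and then 10.98, 11.05 and 10.84. Its rise of 1.34 exceeded the 0.62 of the earlier step (difference 0.73, adjusted p = 0.0021). Cpox, coproporphyrinogen oxidase, went the other way, with a rise of 0.57 after 1.78 (difference -1.20, adjusted p = 0.000212). Ppox, the oxidase that follows Cpox in the pathway, had fallen by 0.20 and then rose by 0.98, from 9.46, 9.37 and 9.39 to 10.31, 10.39 and 10.47. Abcb10, a mitochondrial transporter needed for heme synthesis, was a new rise of 0.81 (SE 0.0571, adjusted p = 4.79e-06). Alas2, the erythroid enzyme of the first step, was low at 7.62, 7.68 and 7.63, below the median on all Pre CFU-E arrays, and reached 8.22, 7.97 and 8.07, a rise of 0.44 after a fall of 0.23. Alas1, the general form of that enzyme, was not called (-0.11). Slc25a39, a mitochondrial carrier, was the member that fell (-0.21), and this call was lost when the WT array of CFU-E was left out (-0.17, adjusted p = 0.0685).

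Iron genes followed a similar course, with 10 of 17 higher and 2 lower (median 0.22). Tfrc, the transferrin receptor that brings iron into the cell, rose by 0.74 from 11.57, 11.56 and 11.57 to 12.33, 12.30 and 12.28, after 1.11 at the step before. The exporter Slc40a1 rose by 0.48 after 1.24. Slc25a37, or mitoferrin 1, which carries iron into mitochondria, had fallen by 0.32 and rose by 0.48 (adjusted p = 0.00136). Between 6 and 10 iron genes were higher under the alternatives tried, and both lower calls were lost without the WT Pre CFU-E array, without the Het array of CFU-E or with the arrays centred.

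On the red cell surface, Rhd, a subunit of the Rh complex, rose by 1.25 (SE 0.0835) from 11.48, 11.54 and 11.69 to 12.84, 12.91 and 12.71, less than its 3.01 before (difference -1.76, adjusted p = 4.55e-05). Its partner Rhag rose by 0.54 after 1.66. Cldn13, a claudin, rose by 1.44 after 2.86, and Tspan33, a tetraspanin, by 1.07 after 1.15. Btnl10 had barely begun, at 7.34, 7.34 and 7.42, and rose by 2.01 to 9.38, 9.33 and 9.42. Of the 21 surface genes tested 11 rose and 4 fell, the falls being Aqp9 (-0.73), Cd55 (-0.49), Cd59a (-0.48) and Xk (-0.22). The Xk call was the least stable of these, lost in 11 of 22 alternatives, 6 of them without 1 array each (-0.14 to -0.24), and 2 surface genes rather than 4 were lower without the WT Pre CFU-E array. In the membrane skeleton 8 of 14 rose, and Add3 (-0.51), Tpm3 (-0.30) and Tmod3 (-0.23), whose products have a wide tissue range, fell. Of 8 tested genes that mark erythroblasts past the CFU-E, 7 rose (median 0.54), whereas 1 had risen and 4 had fallen at the step before (median -0.14), and their summed intensity was 4522 to 4829 in Pre CFU-E and 7638 to 7773 in CFU-E. Hemgn, an erythroid nuclear protein gene, led the rest with a new rise of 1.41 (SE 0.0557) from 9.49, 9.65 and 9.70 to 11.02, 10.99 and 11.06. The ubiquitin ligase gene Trim58 was not called (-0.11). The adult globin genes were not analysed here, and of the globin genes measured only Hba-x passed the filter, with a difference of 0.19 that was not called.

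**Figure D3:**
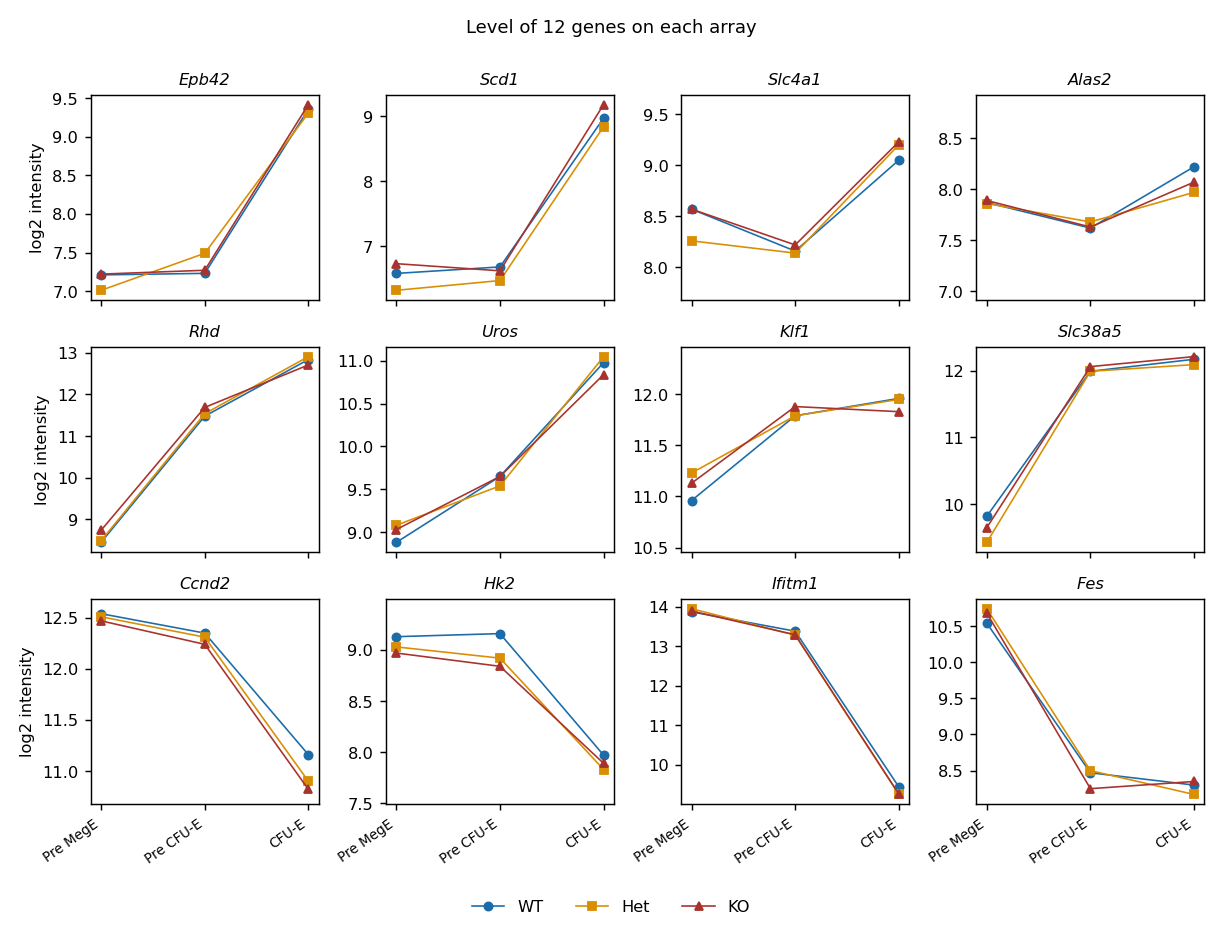
Log2 intensity (y axis, scaled per gene to at least 2 log2 units) of 12 genes at the 3 stages in order of maturation (x axis), with 1 line per genotype and 1 array per point. Between Pre CFU-E and CFU-E, Epb42, Scd1 and Slc4a1 go up and Ccnd2 and Hk2 go down in all 3 genotypes. Klf1 and Slc38a5 go up, and Fes goes down, between Pre MegE and Pre CFU-E.

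Several transcription factors that define the lineage had risen before and were not called at this step. Klf1, the erythroid Kruppel-like factor, had risen by 0.71 at the earlier step and measured 11.79, 11.79 and 11.88, then 11.96, 11.95 and 11.83. The groups overlapped, and the difference of 0.09 was not called (adjusted p = 0.322), while the difference between the steps was (-0.62, adjusted p = 0.00377). Gata1 (0.06), Tal1 (0.12) and Gfi1b (0.10) had also been called higher before and were not called now. Gata2, which GATA1 replaces, fell by 1.69 (SE 0.0454) from 10.68, 10.77 and 10.66 to 9.03, 9.06 and 8.95 after a fall of 1.64, with no difference called between the steps (-0.05, adjusted p = 0.683). Myb, a factor of dividing progenitors, fell by 0.61 after 0.17. Sox6, a repressor of embryonic globin genes, had fallen by 0.47 and then rose by 0.42. Of 21 erythroid factors 5 rose and 4 fell at this step (median 0.04), beside 18.7% and 25.3% of all genes tested. At the earlier step 6 of the 21 had risen and 9 had fallen (median -0.11). The largest rise at the later step was E2f2 (0.75, SE 0.0964, adjusted p = 0.000215).

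E2f2, an E2F factor of the cell cycle, was a new rise. Of 25 G1 and S phase regulators tested 8 were higher and 8 lower (median -0.002). Over all genes tested 18.7% were higher and 25.3% lower. Ccnd2, cyclin D2, measured 12.35, 12.31 and 12.24 and fell to 11.16, 10.90 and 10.82, by 1.34 (SE 0.0619, adjusted p = 3.52e-07) after 0.21. Ccnd3, cyclin D3, had fallen by 0.59 and rose by 0.43, from 10.94, 10.69 and 10.89 to 11.29, 11.26 and 11.27. The Ccnd3 groups did not overlap, and its turn was called as a difference between the steps of 1.02 (adjusted p = 0.000116). Ccne1 and Ccne2, the E cyclins, rose by 0.98 and 1.0, Ccne1 less than before (2.05) and Ccne2 more (0.49). The difference between the steps for Ccne2 was not called without the WT Pre CFU-E array (0.48, adjusted p = 0.0697) or without the KO Pre CFU-E array (0.48, adjusted p = 0.0564). Cdkn2c, the CDK inhibitor p18, was a new rise of 0.77, and Rb1, the retinoblastoma gene, rose by 0.52. Myc (-0.44), Cdk6 (-0.36) and Mycn (-0.50) fell.

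Replication genes rose further. Of 35 tested 28 rose and 0 were called lower by limma, with 0 also at an unadjusted p under 0.05 (median 0.27 after 0.39), with Rrm2, a ribonucleotide reductase subunit, at 0.79, the thymidine kinase Tk1 at 0.67 and the origin licensing factor Cdc6 at 0.49. The count of higher genes was between 18 and 32 under the alternatives. In mitosis 21 of 31 rose and 0 were called lower by limma (1 at an unadjusted p under 0.05), with Birc5 at 0.41 and Aurka at 0.33, but the median was 0.24 after 0.64, and the rise was smaller than before for 24 of 31 by the test of the difference. Mki67 was not called (0.05).

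Programmes that had risen broadly at the earlier step slowed or ended. All 30 genes of the mitochondrial ribosome and translation had been called higher by a median of 0.71, and 12 were called higher now by a median over the list of 0.14. Their differences were smaller than before for 27 of 30. In the respiratory chain and ATP synthase all 34 genes had risen by a median of 0.57, and 7 rose now (median 0.11), of which Ndufs1 went from 11.22, 11.11 and 11.23 to 11.58, 11.60 and 11.55. These counts depended on the setting, with 3 to 19 mitochondrial ribosome genes and 2 to 22 respiratory genes called higher under the alternatives, although none of the respiratory genes was called lower under any. Of single arrays, leaving out the WT Pre CFU-E, Het Pre CFU-E, WT CFU-E or Het CFU-E array gave 5 to 7 mitochondrial ribosome and 3 to 4 respiratory genes, and leaving out the KO CFU-E array gave 18 respiratory genes. In ribosome biogenesis, the making of ribosomes in the nucleolus, 29 of 30 genes had been higher before (median 0.48), and 2 were higher and 5 lower now (median -0.04). Of these 30 genes 26 were rises that ended. The balance at the later step turned with the scaling, to 5 higher and 2 lower with each array centred (median -0.003). The count lower was 2 without the KO Pre MegE, WT Pre CFU-E, Het Pre CFU-E, WT CFU-E or Het CFU-E array and 3 without the KO Pre CFU-E array, and the count higher was 1 without the WT Pre CFU-E, WT CFU-E or Het CFU-E array. Nip7 had risen by 0.97 and measured 10.53, 10.45 and 10.60, then 10.77, 10.70 and 10.50, which was not called. Heatr1 (-0.23) and Polr1e (-0.26) were among the 5 that fell, and the Heatr1 call was lost without the 3 Het arrays (-0.18, adjusted p = 0.066) or the 3 WT arrays (-0.23, adjusted p = 0.0548). Of 19 cholesterol synthesis genes 16 had been higher before and 5 were now, including Pmvk (0.68) and Sqle (0.50), and the difference between the steps was called below 0 for 7. With the WT array of Pre CFU-E left out, 3 were higher.

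Single genes with large rises that ended included transporters. Slc26a1, a sulfate exchanger, had risen by 2.88 and measured 11.28, 11.44 and 11.33, then 11.40, 11.51 and 11.68. The groups overlapped, and the difference of 0.18 was not called (adjusted p = 0.215). Slc38a5, a glutamine transporter, had risen by 2.38 and differed by 0.15 now (adjusted p = 0.131). The metallothionein Mt2 had risen by 2.16 and was level (0.00), and Mt1 had risen by 1.55 and fell by 0.25, a call lost without the KO Pre CFU-E array (-0.19, adjusted p = 0.0574) or the WT array of CFU-E (-0.21, adjusted p = 0.0665). The transcription factor Nfia had risen by 1.68 and was level (0.05) on the probe set used. Its other probe set differed by 0.34 at the later step, so the end of the rise was read on the brighter probe set only. Other transporters kept rising, with Slc30a10, a manganese exporter, at 1.72 after 0.56 and the copper transporter Atp7b at 0.81 after 2.85. The glycine transporter Slc6a9 (0.89) was a new rise. Of 24 transporters 10 rose and 2 fell, or 1 without the WT or Het array of either later stage.

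A few genes peaked at Pre CFU-E. Mc2r, the adrenocorticotropin receptor, measured 7.28, 7.43 and 7.12 in Pre MegE, 8.64, 8.85 and 8.99 in Pre CFU-E and 6.83, 7.11 and 7.06 in CFU-E. It was the largest such turn, with a rise of 1.55 and a fall of 1.83 (SE 0.0896, adjusted p = 5.07e-07). Il31ra, a cytokine receptor chain, rose by 1.06 and fell by 1.49. Spry4, an inhibitor of receptor kinase signalling, rose by 1.32 and fell by 0.37, and Rpp40, a ribonuclease P subunit, rose by 1.30 and fell by 0.49. In all 333 genes were called higher at the earlier step and lower at the later one (3.11%). The reverse course, a fall and then a rise, was called for 166 genes (1.55%), among them Dhrs3, a retinaldehyde reductase (-1.13, then 0.80), Micall2 (-1.17, then 0.82), the receptor gene Gpr146 (-1.11, then 0.65) and the serotonin receptor gene Htr2a (-1.11, then 0.39).

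**Figure D4:**
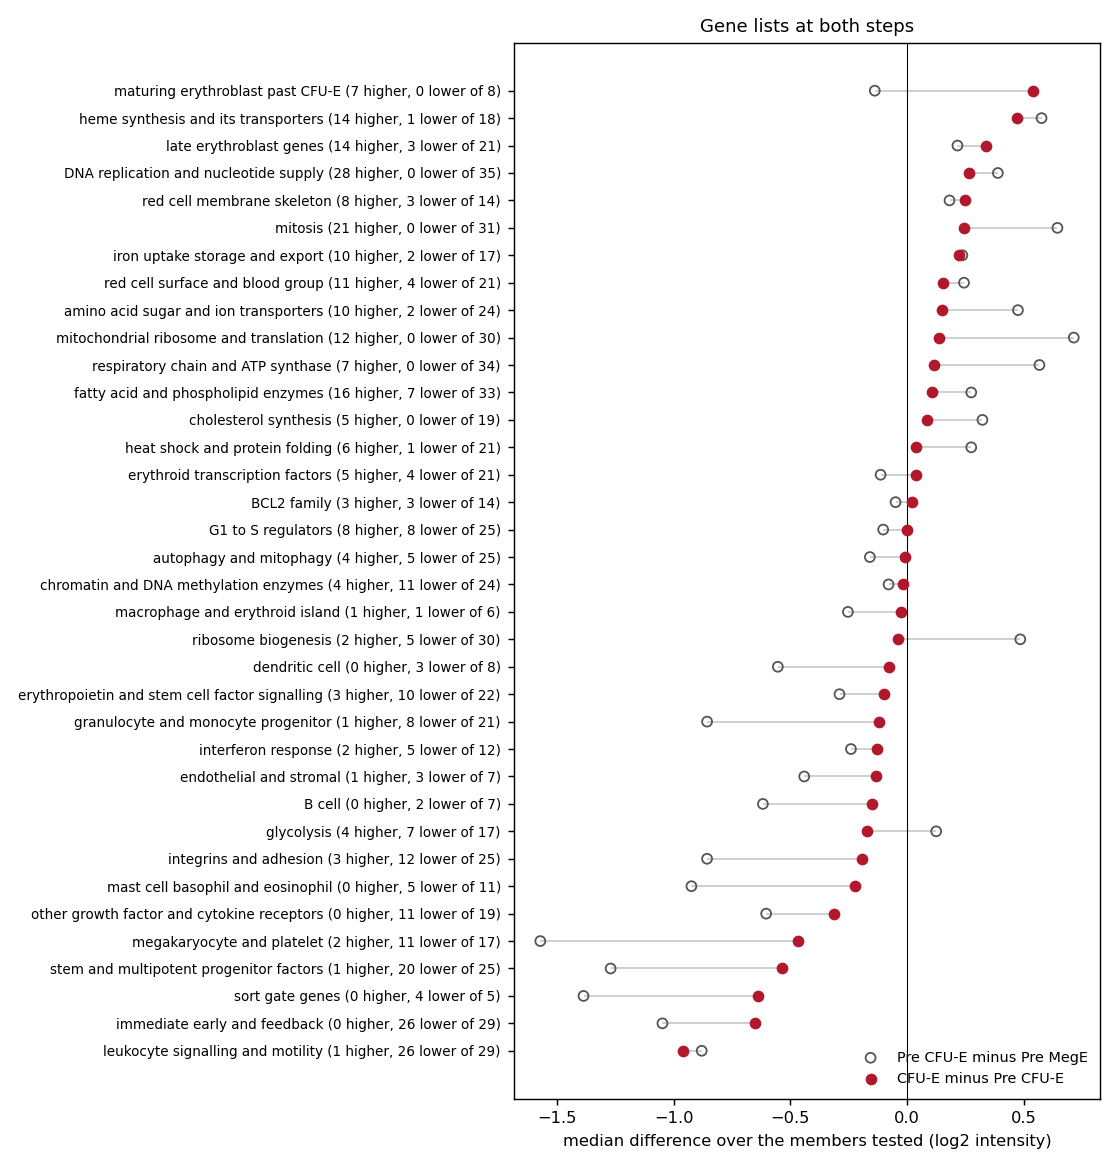
Median log2 difference of the tested members of each gene list with at least 5 of them (x axis) at the earlier step (open circles) and the later step (filled circles), with the numbers called higher and lower at the later step beside each name. Ribosome biogenesis, the mitochondrial ribosome and the respiratory chain have large medians at the earlier step and small ones at the later step, whereas leukocyte signalling is about as low at both. Lists share some genes, both steps share the Pre CFU-E arrays, and the medians carry no error bar.

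The new falls included the glycolysis genes Hk2 and Pfkp. Hk1, a hexokinase gene of the same list, was bright, with a mean of 13.57 and 12.28 on its 2 probe sets. It differed by only -0.12 and -0.19 at this step. Hk2, hexokinase 2, measured 9.16, 8.92 and 8.84, then 7.97, 7.83 and 7.89, a fall of 1.08 (SE 0.0548, adjusted p = 6.21e-07) after -0.07 with no call before. Pfkp, the platelet form of phosphofructokinase, fell by 0.79 from 9.20, 9.03 and 9.13 to 8.40, 8.42 and 8.19, while the muscle form Pfkm rose by 0.57. Pfkfb3, which makes an activator of phosphofructokinase, fell by 1.02 after an earlier fall of 0.55. The glucose transporter Slc2a1 fell by 0.75 after an earlier fall of 1.32. The red cell pyruvate kinase Pklr rose by 0.37 after 2.56, and Bpgm, which makes the hemoglobin effector bisphosphoglycerate, was higher by 0.37. The Pklr call was lost without the WT Pre CFU-E array (0.31, adjusted p = 0.0594) or the Het array of CFU-E (0.33, adjusted p = 0.0508). Across glycolysis 4 of 17 rose and 7 fell (median -0.17 after 0.12).

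Other new falls were Pde7b, a cyclic nucleotide phosphodiesterase (-1.87), the adenylate kinase gene Ak4 (-1.60 on the probe set used and -0.23 on its other), the phosphatase gene Ptpn14 (-1.57), Mmd (-1.56) and Cd63 (-1.49). Psmb8, a catalytic subunit of the immunoproteasome, fell from 10.31, 10.09 and 10.20 to 9.01, 8.54 and 8.29. Its fall of 1.59 had the widest error of those named here (SE 0.142, adjusted p = 2.12e-05), with the KO array lowest. Ctsc, a lysosomal protease gene, fell by 1.29 after -0.05 and was chosen after its values were seen. Pde7b is counted here although it had been called higher by 0.33 before.

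Receptors and adapters of the erythropoietin and stem cell factor pathways shifted in opposite directions. Epor, the erythropoietin receptor, rose by 0.40 from 11.70, 11.77 and 11.83 to 12.13, 12.18 and 12.19, after 0.80. Kit, the stem cell factor receptor and CD117 of the gate, fell by 0.64 from 12.38, 12.42 and 12.37 to 11.67, 11.79 and 11.79. Gab2, a docking protein for receptor kinases, fell by 1.22 (SE 0.0647) from 10.73, 10.68 and 10.35 to 9.63, 9.27 and 9.18. Its relative Gab1 had fallen by 0.41 and rose by 0.80, from 9.04, 9.24 and 9.15 to 9.87, 9.89 and 10.10. The feedback inhibitors Cish and Socs2 fell by 1.08 and 1.5, Socs2 by 0.56 on its other probe set. Of 22 genes of these pathways 3 rose and 10 fell. Among survival regulators, Bcl2 fell by 1.29 after 1.34, from 9.14, 9.05 and 9.09 to 7.88, 7.85 and 7.66. Bcl2l1, which encodes BCL-XL, had fallen by 0.62 and rose by 0.28, and the death-promoting Bcl2l11 (BIM) had fallen by 0.50 and rose by 0.70.

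The largest falls continued earlier ones and included several genes of leukocyte signalling and motility. Ifitm1, an interferon-induced membrane protein gene, was near the top of the scale at 13.38, 13.28 and 13.29 and dropped to 9.44, 9.25 and 9.26. Ifitm1 fell by 4.01 (SE 0.0569, 16.1-fold, adjusted p = 1.24e-09) after a fall of 0.58, and the difference between the steps was -3.42 (adjusted p = 7.1e-07). Ifitm3 fell by 1.22 after 1.04. Members of this family are close in sequence, and how far their probes cross-react was not examined. Of the other 11 interferon response genes tested 4 fell, Ifitm2 by 0.77, Ifitm3, Irf1 by 0.88 and Xaf1 by 0.52, and all had also fallen before. Irf1 differed by only -0.16 on its other probe set. Usp18 rose by 1.16 (SE 0.138) and Ifit2 by 0.33. Of 29 genes of leukocyte signalling and motility 26 fell and 1 rose (median -0.96 after -0.88), and 14 fell by at least 2-fold. Slamf1, whose product set the gate, is one of them, and without it 25 of 28 fell, 13 by at least 2-fold (median -0.93 after -0.84). The list was chosen with earlier results of these data known. It holds Slamf1, Prkch, Pdcd1, Rgs1, Dock2 and Rab37 of the 12 largest falls, so its counts partly restate that choice. The 1 rise was not called without the KO Pre CFU-E array. Prkch, a protein kinase C, fell by 2.67 from 10.48, 10.53 and 10.49 to 7.98, 7.72 and 7.79, and by 1.05 on its other probe set. Dock2, an activator of RAC in blood cells, fell by 2.25 from 10.85, 10.91 and 10.80 to 8.63, 8.53 and 8.64, and Pdcd1, which encodes PD-1, by 2.53 after 0.65. Mc5r, a melanocortin receptor gene, fell by 2.97 and Muc13, a membrane mucin gene, by 2.81. Ctla2a fell by 3.03 to 6.10, 5.76 and 5.51, the dimmest of these, and its signal may include that of its close copy Ctla2b, which the array cannot be assumed to keep apart.

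Slamf1, which encodes CD150, fell by 3.20 from 9.93, 9.88 and 9.87 to 6.98, 6.62 and 6.47, below the median on all CFU-E arrays. As CD150 set the gate, this checks the sort and is no finding. Eng, which encodes CD105, the marker gated from low to positive, measured 11.69, 11.73 and 11.77, then 11.76, 11.78 and 11.84, and was not called (0.06, adjusted p = 0.287). Itga2b (CD41) fell by 0.76 and Fcgr2b, one of the CD16/32 genes, by 0.33, although both gates excluded these proteins.

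Stem and progenitor factors fell at both steps. Of 25 tested 20 fell and 1 rose (median -0.53 after -1.27). Meis1, a homeobox factor of stem cells, fell by 1.82 to 6.89, 6.79 and 6.91, and its Pre CFU-E value was 8.68 on all 3 arrays. Ikzf2 (-1.84), Hhex (-1.56) and the angiopoietin gene Angpt1 (-2.03) fell likewise, and Hhex fell more than before (difference -0.97, adjusted p = 0.000137). Mllt3 was the member that rose (0.42). Immediate early genes, which respond to growth factors and to cell handling, fell in 26 of 29 cases, and limma called 0 higher (1 at an unadjusted p under 0.05, and 1 called with centred or quantile-normalized arrays; median -0.65 after -1.05). Egr1 fell by 1.38 from 11.58, 11.51 and 11.42 to 10.17, 10.11 and 10.09, more than before (1.0), a difference between the steps not called without the WT Pre CFU-E array (-0.33, adjusted p = 0.069). Klf6 fell by 1.5 and Zfp36, which destabilises messages of growth genes, by 1.35. Whether dissociation or sorting time took part was not tested.

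Some earlier falls were not called further at this step, with a difference between the steps called above 0. Csf2rb, the receptor chain shared by GM-CSF and related cytokines, had fallen by 2.21 and measured 7.83, 7.68 and 7.53, then 7.52, 7.33 and 7.71. The groups overlapped, and the difference of -0.16 was not called (adjusted p = 0.247). The kinase gene Fes had fallen by 2.25 and was at -0.13, the mast cell receptor chain gene Ms4a2 by 2.02 and at -0.23, and Csf3r, the G-CSF receptor, by 1.13 and at -0.02. Of 19 other receptors, mostly of growth factors and cytokines, 11 fell now, and limma called 0 higher, with 0 also at an unadjusted p under 0.05. The list also holds Mc5r and F2r, which are not growth factor or cytokine receptors. They were the 2 members that fell by at least 2-fold.

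Markers of neighbouring lineages were read on the same arrays. Granulocyte and monocyte progenitor genes were bright, with 18 of 23 at or above the median on all 6 arrays and a summed intensity of 35563 to 42397 in Pre CFU-E and 30729 to 36514 in CFU-E. Of 21 tested 8 fell and 1 rose at the later step (median -0.12), whereas 20 had fallen at the earlier one (median -0.86), and 12 were falls that ended. Without the WT Pre CFU-E array 5 fell, and the 1 rise was lost without any of 8 of the 9 arrays. Mpo, myeloperoxidase, measured 11.71, 11.43 and 11.41, then 11.52, 11.13 and 11.29, overlapping groups with a called fall of 0.20 that was lost without the WT Pre CFU-E (-0.19, adjusted p = 0.0775), Het Pre CFU-E (-0.18, adjusted p = 0.0566) or Het CFU-E array (-0.15, adjusted p = 0.0874). Spi1, which encodes PU.1, fell by 0.86 from 9.41, 9.30 and 9.29 to 8.55, 8.41 and 8.46. Megakaryocyte and platelet genes summed to 8545 to 8733 in Pre CFU-E and 4811 to 4878 in CFU-E, with 11 of 17 lower and 2 higher, Tubb1 (0.47) and Vwf (0.20). The Vwf call was lost without any 1 of 4 of the 6 arrays compared (0.15 to 0.22, adjusted p = 0.068 to 0.163). Gp9 had fallen by 1.76 and stayed at 8.93, 8.72 and 8.93, then 9.04, 9.05 and 8.87. Mast cell and basophil genes fell in 5 of 11 cases, with the histidine decarboxylase gene Hdc at -1.78 and Cpa3 at -1.46. Macrophage genes were mostly dim, with 12 of 18 below the median on all 9 arrays, the complement genes C1qa, C1qb and C1qc among them. Of 8 dendritic cell genes tested 3 fell, of 7 B cell genes 2 fell, of 7 endothelial and stromal genes 3 fell and 1 rose, and of 2 T and NK cell genes 1 fell. Over all genes tested 25.3% fell and 18.7% rose. A gene bright only at Pre MegE could pass the filter. Without the filter the medians of these lists at the later step were 0.03, -0.03, 0.06 and 0.01, in the same order, against 0.03 over all genes. Without the WT Pre CFU-E or WT CFU-E array 1 B cell gene fell, and the endothelial rise was lost without the WT Pre CFU-E, KO Pre CFU-E, WT CFU-E or Het CFU-E array. The part of such cells in the falls at this step was not tested.

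The genotypes served as replicates of the step, and no test of a genotype difference in it was made. Zbtb46 itself, the disrupted gene, went from 8.14 to 8.87 in WT, from 8.30 to 8.62 in Het and from 7.70 to 7.5 in KO. Over the 3 genotypes its difference was not called (0.28, SE 0.226, adjusted p = 0.348). Among the 316 genes changed by at least 2-fold, the median size of the difference was 1.33 in WT, 1.38 in Het and 1.33 in KO.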

How the data were processed

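The deposited values are linear intensities, summarised per probe set with RMA per the submitters' processing notes, with no version given. The annotation table named 21780 of the 29674 probe sets with 1 symbol, 1618 with several and 6276 not at all, and a gene with several probe sets was read from the brightest. Log2 was taken, and genes at or above the array median on at least 2 of the 9 progenitor arrays were tested with limma 3.58.1 (R 4.3.3), with stage and genotype as terms, eBayes and Benjamini-Hochberg adjustment over the 10701 genes. As the labels give 1 array per genotype and stage, the genotypes stand in for replicates and pair the stages, and the median residual SD was 0.0705 log2. The 2 dendritic cell arrays were not used. On simulated data for the CFU-E comparison with 10701 genes, 48% of changes of 0.25, 86% of 0.5, 96% of 1 and 100% of 2 log2 units were recovered, with 7 false calls. The simulation changed only 50 genes at each size, against 44.1% of genes called in the data. Its noise was independent for each gene and array, with no error shared across an array. It therefore checks the fit and does not measure recovery or false calls in these data. The number of arrays, 3 per stage, limits the precision.

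Genes named are Zbtb46, the gate genes, the 12 largest rises and falls, the 8 largest of each class and members of 38 lists (29 programmes, 9 cell types). Members and lists were chosen with earlier results of these data known. Alternatives changed the scaling, the filter, the log offset, the probe set rule, the genotype term, the array weights, the variance prior and the arrays in the fit. Figures were drawn with Python 3.11.15 and matplotlib 3.10.9.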

Additional observations from a re-analysis of the deposited data

Results flagged for a closer look

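A few genes moved one way in the WT pair of arrays and the other way in the KO pair, by more than the median residual SD of 0.0705 in each. Each value is the log2 difference, CFU-E minus Pre CFU-E, of 1 pair of arrays, so a difference between the genotypes was not tested. Zbtb46, the disrupted gene, was at 0.73 in WT, 0.31 in Het and -0.20 in KO. Csf2rb was at -0.30 in WT, -0.35 in Het and 0.18 in KO. Fasn, the fatty acid synthase gene, was at -0.07 in WT, -0.22 in Het and 0.18 in KO. Fes was at -0.17 in WT, -0.33 in Het and 0.09 in KO, and Trim58 at -0.21, -0.21 and 0.08 in the same order. The signs were the other way round for Nip7, at 0.24, 0.26 and -0.10, and for Ms4a2, at 0.14, -0.46 and -0.36. These genes were not called over the 3 genotypes. Groups of 3 arrays were not tested for a sample far from the others.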

How the results depend on the processing

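Of the 154 genes named in the text and called at the later step, 141 stayed called in the same direction under all 22 alternatives planned, and none of the 154 was called in the opposite direction. Cd59a, Ctla2b and Fcgr2b stayed called where tested but did not pass the filter in every alternative. The 10 that lost the call at least once were Acly, Heatr1, Mpo, Mt1, Pklr, Slc25a39, Vwf, Xk, Mir25 and Mir24-2. Of 139 differences between the steps called for named genes, 113 stayed called under the 21 alternatives that give one, 2 stayed called where tested and 24 lost the call. Lower genes outnumbered higher ones as deposited (2711 against 2005), and higher outnumbered lower with each array centred (2500 against 2310). The counts of genes changed by at least 2-fold moved little with 1 array left out, between 76 and 84 higher and 237 and 250 lower. They were 87 higher and 219 lower with each array centred and 83 and 213 after quantile normalization. With 16 added to the intensity before the log they were 76 and 215. Other counts moved more. With array weights, a fit that gave a convergence warning, 3421 genes were higher, with 711 new rises, 2184 continued rises, 594 rises that turned, 1019 new falls and 331 falls that turned. Without the 3 WT arrays there were 1188 genes higher, 183 new rises, 781 continued rises, 151 rises that turned, 322 new falls, 525 falls that ended and 82 falls that turned, and the difference between the steps was called above 0 for 925 genes and below 0 for 1549. Without the Het arrays 1332 genes were higher, with 818 continued rises, 213 rises that turned and 123 starts by level. Without the KO arrays there were 1089 rises that ended, 216 that turned and 119 starts by level. Fewer arrays also mean fewer residual degrees of freedom, and other causes were not tested.

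Leaving out 1 array at a time gave 1322 to 2229 genes higher, 953 to 1600 with a difference between the steps above 0 and 1590 to 2674 below 0. New rises numbered 194 to 344, continued rises 870 to 1665, rises that ended 1064 to 1679, rises that turned 188 to 321, new falls 362 to 609 and falls that turned 95 to 183. The low ends came without the WT Pre CFU-E array, except the rises that ended, which were fewest without the KO Pre CFU-E array. The replicate block here is the genotype, which pairs the stages. With no replicate block 2095 genes were higher and 2771 lower. Without the genes tied on the Pre CFU-E arrays, an alternative added after the data were seen, 1960 genes were higher and 2635 lower. Centring each array on its median moved the median of all genes from -0.005 to 0.032 at the later step and from 0.038 to 0.122 at the earlier one. No detection call comes with the intensities, so a dim gene has no measured background here.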

Other observations

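Further gene groups were counted at the later step, beside 18.7% of all genes tested higher and 25.3% lower. Of 21 tested genes known from later erythroblasts 14 rose and 3 fell (median 0.34 after 0.22), with the ubiquitin enzyme genes Ube2l6 and Ube2o at 0.64 and 0.44 and the exonuclease gene Isg20 at 0.58, while the mitophagy receptor gene Bnip3l fell by 0.25. Adhesion genes were mixed, with 3 of 25 higher and 12 lower. Itga5, the fibronectin receptor chain, rose by 0.66 from 10.13, 10.38 and 10.27 to 10.81, 10.87 and 11.07, and its partner Itgb1 by 0.30. Itgal, the LFA-1 chain of leukocytes, fell by 1.32 from 9.06, 9.06 and 9.0 to 7.65, 7.80 and 7.70, and Icam2 by 1.44. Of 24 chromatin enzymes and related genes 4 rose and 11 fell. The DNA demethylase gene Tet1 fell by 0.70 after 1.53, and Hmga2 (-0.81) and the DNA methyltransferase gene Dnmt3b (-0.59) fell as well. Of 21 protein folding genes 6 were higher and 1 lower, and the count higher was 2 without the Het CFU-E array and 3 without the WT Pre CFU-E or WT CFU-E array. Pdia2, a disulfide isomerase gene, rose by 2.22 from 7.15, 7.09 and 7.12 to 9.28, 9.34 and 9.42. Of 25 autophagy genes 4 rose and 5 fell (2 rose without the WT Pre CFU-E array), and of 14 genes of the BCL2 family 3 rose and 3 fell, shares near those of all genes tested.

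Small RNA genes were singled out after their values were seen. Of 52 snoRNA and scaRNA genes tested 33 rose and 2 fell (median 0.28), against 21 and 12 at the earlier step (median 0.08). Of 72 miRNA genes tested 11 rose and 9 fell (median 0.04). The array does not tell a mature miRNA from its precursor or host transcript. Mature sequences are shown for 2 pairs with a shared seed that rose and for 2 miRNAs whose genes fell, from RefSeq on GRCm38.p6, with the seed (bases 2 to 8) in capitals.
mmu-miR-15a-5p: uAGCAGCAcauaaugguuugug
mmu-miR-15b-5p: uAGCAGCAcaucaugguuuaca
mmu-miR-106b-5p: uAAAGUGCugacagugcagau
mmu-miR-93-5p: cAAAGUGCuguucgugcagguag
mmu-miR-27a-3p: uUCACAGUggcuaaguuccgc
mmu-miR-142a-3p: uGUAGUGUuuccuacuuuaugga
Mir15a and Mir15b, on chromosomes 14 and 3, share a seed and rose by 0.57 and 0.49. Mir106b and Mir93, neighbours on chromosome 5, share another and rose by 0.29 and 0.30. Their neighbour Mir25 was higher by 0.30 but lost the call in 9 of 22 alternatives, 5 of them without 1 array each (0.19 to 0.30). Mir27a fell by 0.66 from 8.53, 8.70 and 8.70 to 7.85, 8.17 and 7.95, with its neighbours on chromosome 8, Mir23a (-0.48) and Mir24-2 (-0.24), the last a call lost without the WT Pre CFU-E array (-0.19, adjusted p = 0.0967), the WT array of CFU-E (-0.22, adjusted p = 0.0621) or the KO array of CFU-E (-0.18, adjusted p = 0.0504). Mir142 fell by 0.70 from 10.26, 10.44 and 10.38 to 9.55, 9.68 and 9.75.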
